A study of Homo sapiens with 9 samples.

Results

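TC-32 is an established human Ewing sarcoma cell line whose growth depends on the fusion protein EWSR1::FLI1. This comparison set 3 RNA-seq libraries of TC-32 cells labelled ETS1-High against 3 labelled ETS1-Low, which are 6 of the 9 libraries in the series. The other 3, labelled RFP, served as a reference for levels and added to the estimate of the spread between libraries. All groups carry the lentiviral vector pLOC, with the ETS1 coding sequence in the ETS1 groups and a red fluorescent protein in RFP. Transduced cells were selected with puromycin and sorted as single cells, and the fusion was left in place in every group. The ETS1-High cells were chosen by the study to hold about as much ETS1 as TC-32 cells depleted of the fusion, and the ETS1-Low cells to hold less. The labels give neither the number of clones in each group nor whether the RFP cells were a clone. P-values therefore measure a difference against the spread between the 3 libraries within each group, estimated over all 9 libraries. That spread may be technical, and a difference between ETS1 levels cannot be told apart from a difference between clones. Reads from the vector and from the endogenous ETS1 gene are not separated in the gene counts.

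ETS1 is a transcription factor that binds DNA at GGAA core motifs through the ETS domain, the same kind of domain that FLI1 contributes to the fusion. In Ewing sarcoma EWSR1::FLI1 turns on GGAA repeats and turns down many genes of the mesenchymal, contractile and matrix programme, and ETS1 itself belongs to the genes that are low while the fusion is active. TNS3 encodes tensin 3, an adaptor that links integrins to actin at adhesions, and PDLIM1 encodes a PDZ and LIM domain adaptor of actin stress fibres.

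ETS1 and TNS3 were higher in the ETS1-High libraries, and PDLIM1 was lost there. Levels below are FPKM, fragments scaled to transcript length and library size. Fold changes are log2 ratios of ETS1-High to ETS1-Low from edgeR's quasi-likelihood test on the counts with Benjamini-Hochberg adjustment over all genes tested. A gene counts as called where its adjusted p was below 0.05. ETS1 (ENSG00000134954.14; chromosome 11, 128458761 to 128587558, minus strand) stood at 2.69, 2.94 and 2.7 FPKM in the ETS1-Low libraries and at 5.34, 5.01 and 5.35 in the ETS1-High libraries, against 0.53 to 0.68 in RFP. The groups did not overlap, and the log2 fold change was 0.85 (SE 0.068; adjusted p 8.1e-16). The ETS1 step between the groups is thus less than 2-fold in these counts. TNS3 (ENSG00000136205.16; chromosome 7, 47275154 to 47582558, minus strand) stood at 3.3, 3.18 and 3.25 FPKM in ETS1-Low and 17.3, 16.1 and 15.2 in ETS1-High. Its level in RFP, 3.21 to 3.63 FPKM, overlapped that of ETS1-Low, so only the ETS1-High libraries stood apart. The log2 fold change of TNS3 was 2.30 (SE 0.044; adjusted p 1.8e-32). PDLIM1 (ENSG00000107438.8; chromosome 10, 95237572 to 95291012, minus strand) stood at 12.99, 12.7 and 13.1 FPKM in ETS1-Low, from 644, 746 and 699 counts, and had 0 counts in each ETS1-High library. Set against a floor of 3 counts per library, the most that a count of 0 allows for counting error alone, PDLIM1 was at least 241.3-fold lower in ETS1-High (adjusted p 2.8e-38). RFP lay between the groups at 4.08 to 4.58 FPKM, and the median log2 fold change of the 20 Mb window around PDLIM1 was -0.35. The 8 tested genes within 1 Mb of PDLIM1 had log2 fold changes from -0.57 to 0.25 with a median of -0.23, so the loss was not shared by its neighbours. The 5 tested neighbours of TNS3 ran from -1.36 to 1.30 with a median of -0.37.

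**Figure D1:**
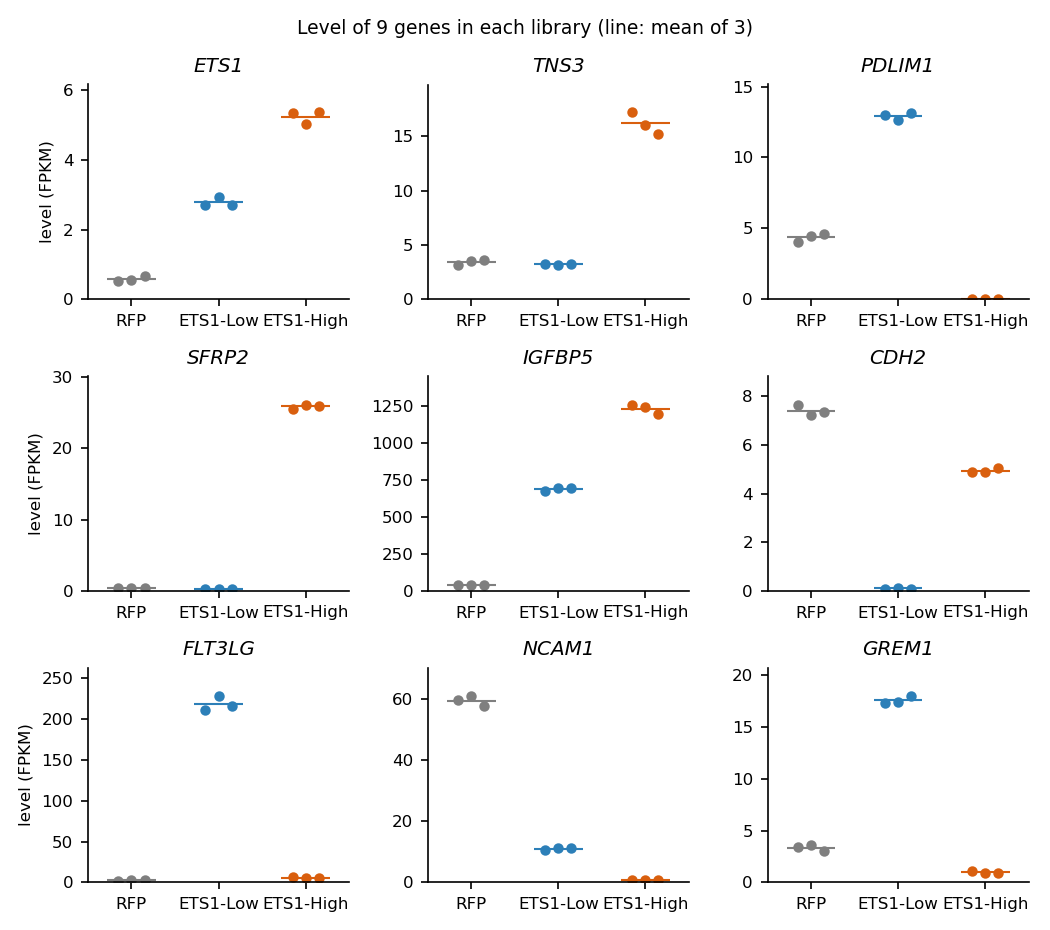
FPKM (vertical axes, linear) of ETS1, TNS3, PDLIM1 and 6 further genes in each of the 9 libraries, by group; points are libraries and lines are group means. TNS3 separates the ETS1-High libraries from both other groups, while PDLIM1 is at 0 FPKM in all 3 ETS1-High libraries.

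The promoter sequences of both adaptor genes are shown because ETS factors read the GGAA core. RefSeq (GRCh38.p14) lists 3 start sites for TNS3 and 1 for PDLIM1, all on the minus strand. Each run below is the 250 bases before a start site, 5′ to 3′ on the gene's strand. Capitals mark GGAA or its reverse complement TTCC.
TNS3, chr7:47582587-47582836: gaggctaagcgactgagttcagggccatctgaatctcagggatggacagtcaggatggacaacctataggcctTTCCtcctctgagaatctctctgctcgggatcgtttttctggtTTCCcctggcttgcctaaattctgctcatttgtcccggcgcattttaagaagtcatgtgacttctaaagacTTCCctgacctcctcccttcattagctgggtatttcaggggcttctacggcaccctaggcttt
TNS3, chr7:47582112-47582361: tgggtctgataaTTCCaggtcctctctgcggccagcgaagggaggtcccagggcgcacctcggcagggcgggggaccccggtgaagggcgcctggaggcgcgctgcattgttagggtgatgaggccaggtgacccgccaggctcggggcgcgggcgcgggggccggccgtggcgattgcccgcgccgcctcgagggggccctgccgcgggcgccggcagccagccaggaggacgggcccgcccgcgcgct
TNS3, chr7:47537473-47537722: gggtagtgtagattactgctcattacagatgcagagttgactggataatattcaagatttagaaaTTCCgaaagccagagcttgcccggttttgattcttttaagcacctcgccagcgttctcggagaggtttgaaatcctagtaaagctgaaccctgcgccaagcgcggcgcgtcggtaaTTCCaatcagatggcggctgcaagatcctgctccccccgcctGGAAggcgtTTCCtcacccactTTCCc
PDLIM1, chr10:95291004-95291253: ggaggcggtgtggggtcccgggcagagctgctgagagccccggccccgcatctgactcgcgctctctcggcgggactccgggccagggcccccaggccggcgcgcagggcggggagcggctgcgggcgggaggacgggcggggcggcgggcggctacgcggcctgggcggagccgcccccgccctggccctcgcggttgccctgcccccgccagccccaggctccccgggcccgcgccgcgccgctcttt
The TNS3 windows hold 3, 1 and 5 core matches, and the PDLIM1 window holds 0. GGAA on either strand is common, present in 92.74% of 34943 promoters of the same length and present at least 3 times in 55.14% of them. The longer ETS site CCGGAAGT, found in 3.394% of promoters on either strand, is in none of these 4 windows. The same search covered other genes described below. SFRP2, IGFBP5 and ITGB8, which rose, held 2, 2 and 1 core matches. Among genes that fell, NOS1 held 2, GREM1 held 4 and 5 at its start sites and FLT3LG 3 and 4. Core matches were thus not confined to genes that rose, and their relation to the fold changes was not tested. A match is a description of the letters and does not show binding.

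The partner genes of the fusion moved little. FLI1, whose 3′ part lies in the fusion, stood at 21.4, 21.9 and 22.4 FPKM in ETS1-Low and 26.3, 26.1 and 26.5 in ETS1-High, without overlap (log2 fold change 0.22; adjusted p 1.2e-07). EWSR1, which encodes the RNA-binding partner, had a log2 fold change of 0.05 that did not pass the test (adjusted p 0.11). Gene counts do not separate the fusion transcript from the intact genes. Among the markers of Ewing sarcoma identity, every one of CD99, NKX2-2, NR0B1, PRKCB, STEAP1, LIPI, CCND1 and BCL11B was expressed in both groups. CD99, the surface glycoprotein used in diagnosis, ran from 228 to 229.6 FPKM in ETS1-Low and from 280 to 291 in ETS1-High. NKX2-2, a transcription factor that the fusion induces, ran from 51.5 to 52.8 and from 46.4 to 53.01 FPKM, an overlap, and CCND1, cyclin D1, overlapped as well at 646 to 652 and 642 to 660 FPKM.

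Several facts of the 6 libraries touch the results below. Library totals ran from 39484704 to 46654734 expected counts, and the first principal component, which separated the groups, held 75.6% of the variance. Differences were not even along the genome: the median log2 fold change of genes above 1 log2 CPM was 0.45 on chromosome 9 and 0.27 on chromosome X, but -0.32 on chromosome 8, -0.31 on chromosome 10 and -0.33 on chromosome 15. On chromosome 9, 430 of 485 such genes were called higher and 19 lower, and on chromosome 15 the figures were 23 higher and 343 lower of 420. Of 153 windows of 20 Mb, 13 had a median above 0.25 and 15 a median below -0.25. Markers of other cell types were for the most part below 1 FPKM in the ETS1 libraries. The 10 haematopoietic markers, of which only LCP1 reached 1 FPKM in an ETS1 library, summed to 54.7 to 56.6 FPKM in ETS1-Low and 28.2 to 30.2 in ETS1-High, with CD3E at 0. The epithelial sum, KRT8 and KRT18 for the most part, was 117.4 to 123.7 FPKM in ETS1-Low and 84.3 to 85.6 in ETS1-High. KRT5 reached 1 FPKM in ETS1-High only. The stromal sum was 26.3 to 28.5 FPKM in ETS1-Low, 52.7 to 59.0 in ETS1-High and 129 to 130 in RFP. COL1A2 was at 0 in both ETS1 groups, while COL1A1, PDGFRB, THY1 and ACTA2 reached 1 FPKM in both. Endothelial markers summed to at most 3.11 FPKM in any ETS1 library. Muscle markers summed to 77.8 to 85.6 FPKM in ETS1-Low and 66.7 to 67.8 in ETS1-High. Glial and neuronal markers summed to 9.89 to 10.24 and 16.7 to 17.0 FPKM in the same order. PAX7 and TNNT1 reached 1 FPKM in both groups, and MYH3 in ETS1-Low only. TUBB3 and SNAP25 also reached 1 FPKM in both groups, while MYOD1, MYOG, SOX10 and STMN2 were at 0. In bulk libraries, fewer cells of a type and less RNA per cell cannot be told apart. The part of these chromosome and marker shifts in the gene results was not tested, and for genes whose 20 Mb window had a median beyond 0.25 in either direction that median is given where the gene is described.

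**Figure D2:**
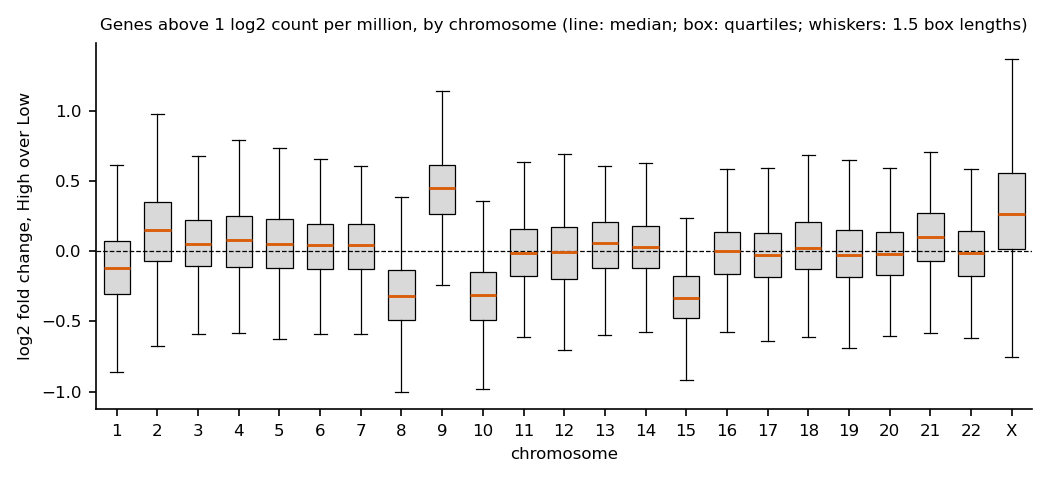
Log2 fold change of ETS1-High against ETS1-Low for genes above 1 log2 CPM, by chromosome; boxes span the quartiles, lines are medians and whiskers reach at most 1.5 box lengths. Chromosome 9 sits at a median of 0.45 and chromosomes 8, 10 and 15 near -0.32, while most other chromosomes have medians close to 0.

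Many genes differed between the groups, most of them by little. Of 17235 genes tested, 10196 (59.2%) were called, 5153 higher (29.9%) and 5043 lower (29.3%) in ETS1-High. The median size of the called log2 fold changes was 0.359. A difference of at least 2-fold was reached by 1679 genes (9.74%), 1043 higher (6.05%) and 636 lower (3.69%). At 4-fold the counts were 443 higher and 189 lower, and at 16-fold 133 and 41. Of the 2-fold genes, 227 had at most 3 counts in every library of 1 group (156 higher and 71 lower), so that their fitted fold change depends on the prior count. For such genes a bound is given, computed from the floor of 3 counts per library, and list medians are also given with them at that bound. The FPKM values of the groups did not overlap for 9579 genes. The median log2 fold change over all genes tested was 0, and the list counts that follow are read against these shares. Medians of lists are medians of log2 fold changes. Where an alternative setting moved a whole list's median by more than 1.5 times, the range over the settings follows the median.

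**Figure D3:**
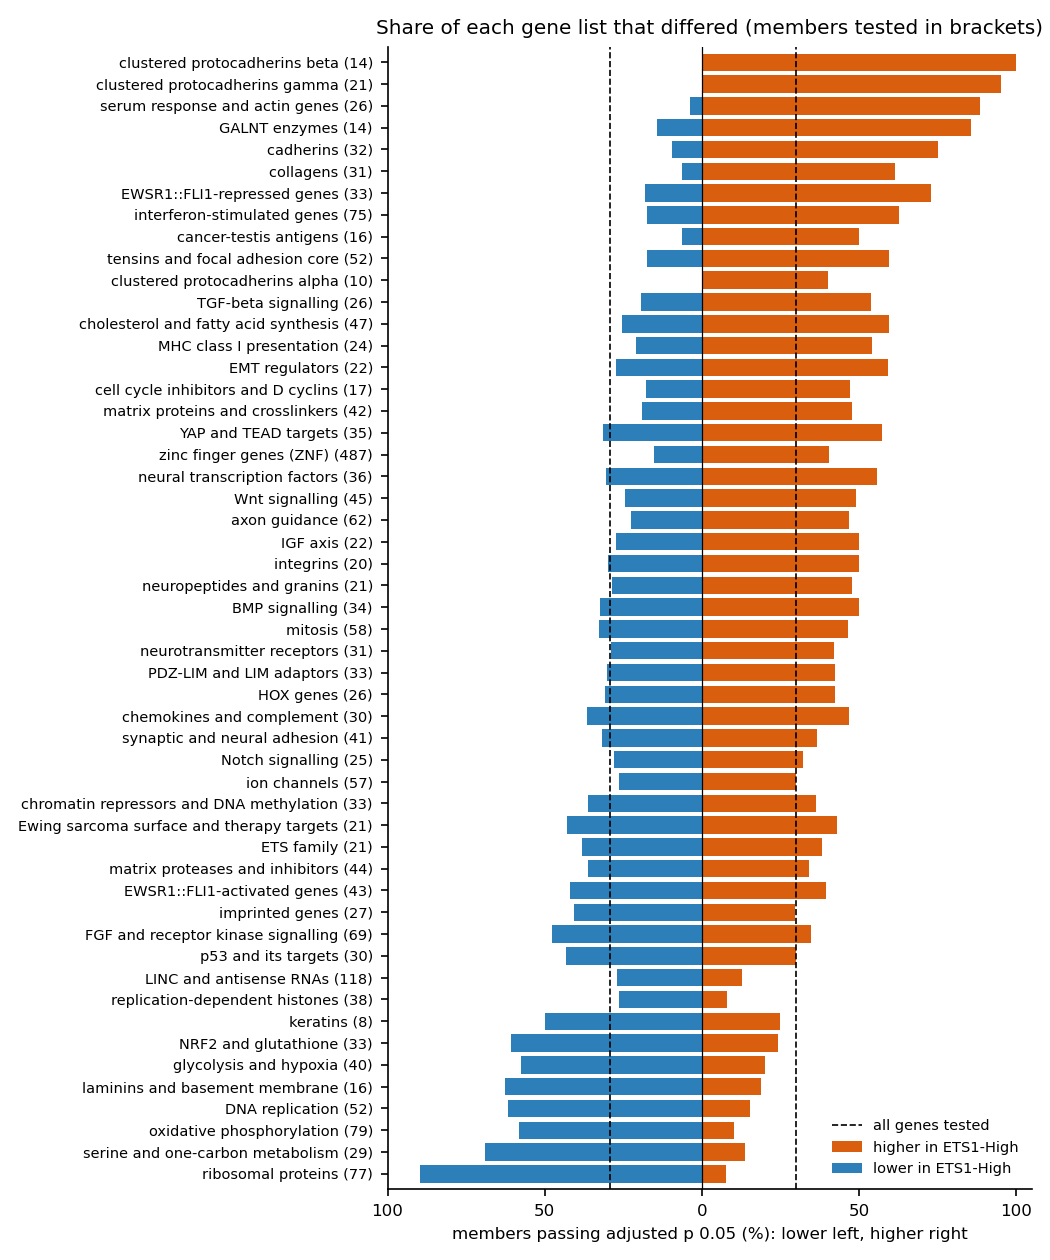
Percent of tested members of each gene list called higher (orange, right) or lower (blue, left) in ETS1-High, with dashed lines at the shares over all 17235 genes tested, 29.9% and 29.3%. Clustered protocadherins, actin genes and cadherins have long bars to the right, and ribosomal protein, serine and oxidative phosphorylation genes long bars to the left.

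The largest increases were ranked among called protein-coding genes with a minimum mean count and no overlap between the groups. They included secreted antagonists, matrix proteins and cell surface genes that were nearly silent in ETS1-Low, beside genes of other kinds. SFRP2, a secreted Wnt modulator, had 0.22, 0.31 and 0.23 FPKM in ETS1-Low and 25.6, 26.1 and 26.03 in ETS1-High (log2 fold change 6.62; SE 0.095; adjusted p 1.8e-46). RFP, at 0.37 to 0.47 FPKM, stood near ETS1-Low, so SFRP2 was high in the ETS1-High libraries alone. ZNF385D, a zinc finger gene, was at 0 FPKM in each ETS1-Low library and at 6.32, 5.09 and 7.21 in ETS1-High, at least 154.4-fold higher. CHRDL1, a secreted antagonist of bone morphogenetic proteins (BMPs), was at least 168.5-fold higher. CHRDL1 had 0.01 to 0.04 FPKM in ETS1-Low and 3.78 to 4.51 in ETS1-High, and its window on chromosome X had a median of 0.58. The small leucine-rich matrix proteins OGN (osteoglycin) and ASPN (asporin) share a window on chromosome 9 whose median was 0.52. OGN rose from 0.02, 0.01 and 0.07 to 3.62, 4.1 and 4.01 FPKM (6.94), and ASPN was at least 52.14-fold higher. ITGB8, the integrin beta chain that activates latent TGF-beta, was at 0 FPKM in ETS1-Low and 0.48, 0.47 and 0.45 in ETS1-High, at least 50.84-fold higher. RUNX1T1, a transcriptional corepressor, was at 0 in RFP, at 0 to 0.01 FPKM in ETS1-Low and at 0.77 to 1.1 in ETS1-High, on chromosome 8 with a window median of -0.27. XYLT1, which starts glycosaminoglycan chains on proteoglycans, rose from 0, 0 and 0.01 to 1.05, 1 and 1.03 FPKM. The interferon-induced gene IFI44L (at least 52.84-fold), the GABA receptor subunit GABRA3 (at least 68.97-fold, window median 0.49) and the sodium chloride cotransporter SLC12A3 (at least 33.65-fold) also belonged to this group, as did ZNF804A (window median 0.32), PNMAL1 and MAGEA6 (window median 0.49). Absence of overlap between the groups was a condition for ranking these genes, and 9579 of the 17235 genes tested met it.

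Several of the largest decreases, ranked in the same way, were in genes that ETS1-Low libraries expressed well and RFP libraries did not. FLT3LG, the ligand of the FLT3 receptor, stood at 211, 228 and 216 FPKM in ETS1-Low and 6.17, 5.86 and 5.04 in ETS1-High (log2 fold change -5.37; SE 0.051; adjusted p 3.3e-54). RFP had 2.13 to 2.8 FPKM, so the high level belonged to the ETS1-Low libraries alone. NOS1, neuronal nitric oxide synthase, followed the same order with 4.42, 4.55 and 4.63 FPKM in ETS1-Low, 0.06, 0.09 and 0.08 in ETS1-High and 0 to 0.01 in RFP (log2 fold change -5.87). IL18, an inflammatory cytokine, and TGM3, a transglutaminase, had log2 fold changes of -4.72 and -4.22 and were at or below 0.07 FPKM in RFP. NRK, a kinase gene on chromosome X, fell from 1.47, 1.44 and 1.44 to 0.03, 0.1 and 0.03 FPKM although its window median was 0.58. RGS7BP and NCAM1 were instead well expressed in both ETS1-Low and RFP. RGS7BP, which anchors G protein regulators at the membrane, had 19.6, 19.2 and 20.7 FPKM in RFP, 17.9, 18.1 and 18.6 in ETS1-Low and 0.83, 0.42 and 0.51 in ETS1-High (log2 fold change -5.15; SE 0.061). NCAM1, the neural cell adhesion molecule CD56, had 57.5 to 60.8 FPKM in RFP, 10.5 to 11.3 in ETS1-Low and 0.7 to 0.82 in ETS1-High (log2 fold change -4.07; adjusted p 2.5e-45). GREM1, a BMP antagonist, went the opposite way to CHRDL1, from 17.3, 17.4 and 18 FPKM in ETS1-Low to 1.1, 0.88 and 0.93 in ETS1-High (log2 fold change -4.15). RFP had 3.08 to 3.6 FPKM, and the window of GREM1 on chromosome 15 had a median of -0.30. The ETS factor ETV4 (-4.04), the sialyltransferase ST8SIA5 (-4.34), the diacylglycerol kinase DGKB (-3.79), VWA5A (-4.37) and C4orf32 (-5.61) were lower as well. In RFP, DGKB, C4orf32 and ETV4 had means of 0.24, 0.27 and 0.42 FPKM, below their 1.92, 0.85 and 1.33 in ETS1-Low.

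Among abundant transcripts, IGFBP5, a binding protein that holds insulin-like growth factors, rose most in FPKM outside the ribosomal protein genes. It went from 678, 695 and 699 FPKM to 1260, 1241 and 1199, against 40.1 to 42.05 in RFP (log2 fold change 0.81; SE 0.030; window median on chromosome 2 0.27). Filamin A, encoded by FLNA on chromosome X (window median 0.49), rose from 569.9, 564 and 588 to 1011, 981 and 977 FPKM, and ACTB, cytoplasmic beta actin, from 1551, 1475 and 1501 to 1844, 1918 and 1864. GAPDH fell from 4402, 4227 and 4336 to 3331, 3472 and 3365 FPKM. MT-RNR2, the large ribosomal RNA of mitochondria, fell from 14060, 15080 and 13800 to 11060, 11590 and 10950 FPKM. Copies of the 5.8S ribosomal RNA also ranked among the largest decreases, but their rows are identical and their reads cannot be assigned to a copy, so their values are uncertain.

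Focal adhesion genes were more often higher than lower. All 4 tensins tested were called higher, and TNS3 had by far the largest fold change. TNS1 ran from 4.12, 3.05 and 3.08 to 4.75, 4.2 and 4.19 FPKM, TNS2 from 1.1, 0.85 and 1.24 to 1.33, 0.98 and 1.25 with overlap, and TNS4 from 0.18, 0.21 and 0.2 to 0.3, 0.33 and 0.48. Their log2 fold changes were 0.27, 0.75 and 0.76, where the window of TNS1 on chromosome 2 had a median of 0.27. Over the 52 tested focal adhesion genes, 31 were called higher, 9 lower and 12 not called, with 5 at 2-fold higher and 0 lower (median 0.22). LIMS2, the PINCH adaptor of integrin-linked kinase, rose from 3.25, 3.13 and 3.67 to 16.04, 18.8 and 18.3 FPKM, without overlap (log2 fold change 2.34; window median 0.41). SORBS3, the vinculin partner vinexin, fell, with a log2 fold change of -0.46 (window median -0.36). The PDZ-LIM and other LIM adaptors split, with 14 of 33 higher and 10 lower (median 0.07, range 0.03 to 0.09). In that list PDLIM1 was at the low end. LMO7 (1.94), CSRP1 (1.42) and FHL1 (1.37; window median 0.46), LIM proteins of junctions, smooth muscle and the sarcomere, rose, and NEBL (-1.49; window median -0.23), which encodes nebulette, fell.

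Integrin chains differed in both directions. Of 20 tested, 10 were called higher and 6 lower, and the median was 0.67, or 0.57 with the 3 genes at their bound. That median fell when low-count genes were left out: it was 0.01 with at least 10 counts in every library and 0.01 with a filter of 1 FPKM. With only the 6 ETS1 libraries in the fit it was 0.26. ITGA1, the alpha chain of a collagen receptor, rose from 1.88, 1.51 and 2.29 to 8.95, 7.63 and 5.94 FPKM (log2 fold change 1.94; adjusted p 9.6e-36). It shares exon bases with PELO on the same strand. ITGB2, the leukocyte integrin beta chain, had a log2 fold change of 0.88. ITGA6, the alpha chain of laminin receptors, fell from 3.1, 3.51 and 3.48 to 1.13, 1.15 and 1.19 FPKM (log2 fold change -1.42), and ITGA3, another laminin receptor chain, had a log2 fold change of -0.80. ITGA5, a fibronectin receptor chain, had a log2 fold change of 0.01 that did not pass the test (adjusted p 0.83).

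Actin and contractile genes rose almost as a block. Of 26 tested genes of the serum response, 23 were higher by the test and 1 lower, with 6 and 0 at 2-fold (median 0.42). MYLK, the kinase that activates smooth muscle myosin, stood at 1.6, 1.17 and 1.29 FPKM in ETS1-Low and 7.67, 8.19 and 7.96 in ETS1-High, above the 3.06 to 4.58 of RFP (log2 fold change 2.30). TAGLN, transgelin, rose from 1.76, 2.17 and 2.04 to 15.2, 14.5 and 13.8 FPKM, with a log2 fold change of 2.25 in the counts. FPKM divides by a transcript length that RSEM estimates per library, so its ratio can differ from the fold in counts, as it does for TAGLN, TNS2, ETV4, ETV5 and PCDHB15. TMSB4X, which encodes the actin-sequestering peptide thymosin beta 4, stood at 837 to 859 FPKM in RFP, 98.2 to 106 in ETS1-Low and 235 to 248 in ETS1-High, so the ETS1-High libraries lay between the other groups. ACTA2 (1.29; window median -0.35) and ACTG2 (4.67), the smooth muscle actins, were higher as well, ACTG2 from 0.09, 0.02 and 0.07 to 2.04, 1.46 and 1.37 FPKM. TAGLN2 was the member called lower (-0.16).

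Collagens were more often higher than lower, and the members called lower were the collagen IV chains COL4A1 and COL4A2. Of 31 tested, 19 were called higher, 2 lower and 10 not called (median 0.89, or 0.60 with 6 genes at their bound; range 0.15 to 1.02), and 12 passed 2-fold as higher. All 10 fibrillar collagens tested were called higher, with a median of 0.98. COL5A1, which sets fibril diameter, rose from 2.06, 2.32 and 2.33 to 17, 17.3 and 15.5 FPKM (log2 fold change 3.05; SE 0.048; adjusted p 3.4e-30). RFP had 26.9, 30.1 and 28.4 FPKM, above both ETS1 groups, and the window of COL5A1 on chromosome 9 had a median of 0.43. The fibrillar chains COL5A2 (0.99) and COL3A1 (0.40) were higher too, in a window of chromosome 2 with a median of 0.32, as was COL11A1 (1.47). COL4A1 and COL4A2, the main chains of basement membranes and neighbours on chromosome 13, both fell. COL4A1 went from 2.16, 2.05 and 2.37 to 0.74, 0.73 and 0.77 FPKM (-1.58) and COL4A2 from 4.68, 4.34 and 3.9 to 1.61, 1.48 and 1.39 (-1.49), and RFP had the most of both. COL4A3 (1.85) and COL4A4 (1.61), other chains of collagen IV, rose.

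Other basement membrane genes were also more often lower than higher. Of 16 tested laminins and partners, 10 were called lower and 3 higher (median -0.23, range -0.27 to -0.11), and all 5 nidogen, perlecan and agrin-type members were lower with a median of -0.30. NID2, nidogen 2, had a log2 fold change of -0.68, DAG1, the dystroglycan receptor of laminins, of -0.30 and LAMA3, the alpha chain of epithelial laminin, of -1.64. LAMB2, a laminin beta chain, rose (0.30).

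Interstitial matrix proteins were also more often higher than lower. Of 42 matrix proteins and crosslinkers, 20 were called higher and 8 lower, 16 and 1 at 2-fold (median 0.63, or 0.33 with 7 genes at their bound; range 0.03 to 0.76). The low end of that range was on log2(FPKM + 1) with a filter of 1 FPKM. TNC, tenascin C, rose from 189.6, 196 and 199 FPKM to 494, 462 and 470.5, with 345 to 355 in RFP (log2 fold change 1.24; window median 0.44). TGFBI, a matrix protein induced by TGF-beta, rose from 265, 262 and 257 to 544, 533 and 539 FPKM (1.04). BGN, biglycan, rose from 0.3, 0.22 and 0.27 to 4.22, 4.87 and 4.26 FPKM (4.04; window median on chromosome X 0.49), and LOX, which crosslinks collagen and elastin, from 0.81, 1.2 and 0.89 to 5.35, 4.4 and 4.05 (2.33). CD44, the hyaluronan receptor, rose from 1.66, 1.74 and 1.75 to 8.66, 8.9 and 7.12 FPKM (2.76), above the 1.22 to 1.84 of RFP. The rise was not general: FN1, fibronectin (-0.28; window median 0.27), and SPARC (-0.43) fell. DCN, decorin, was at least 12.51-fold higher and LUM, lumican, at least 5.27-fold, both at low levels of 0.61 to 0.75 and 0.23 to 0.51 FPKM in ETS1-High. The summed stromal markers, given above, were higher in ETS1-High as well, and their part in the matrix and collagen results was not tested.

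Matrix proteases and their inhibitors changed in both directions, 15 of 44 higher (34.09%) and 16 lower (36.36%). These shares were not far above the 29.9% and 29.3% over all genes tested. MMP2, gelatinase A, had a log2 fold change of 1.48, and MMP1, interstitial collagenase, was at least 13.61-fold lower, from 0.38, 0.55 and 0.61 to 0.03, 0.01 and 0.04 FPKM. PLAU, urokinase on chromosome 10, had a log2 fold change of -1.47 (window median -0.29). Of the 5 tissue inhibitors of metalloproteinases and relatives, 4 were called higher and 1 lower. TIMP3 rose from 0.57, 0.56 and 0.6 to 5.75, 5.48 and 5.87 FPKM (3.28; adjusted p 5.3e-36) while RFP had 0.24 to 0.32. TIMP2 had a log2 fold change of 0.95 and TIMP1, on chromosome X, of -0.31.

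Cadherins and the beta and gamma protocadherins rose in most of their tested members. Cadherins join cells through calcium-dependent contacts, and the clustered protocadherins give neurons combinatorial surface identities from 3 gene arrays on chromosome 5. Of 32 cadherins outside the clusters, 24 were called higher and 3 lower, with 17 and 0 at 2-fold (median 1.09, range 0.44 to 1.12). CDH2, N-cadherin, stood at 0.09, 0.14 and 0.09 FPKM in ETS1-Low and 4.91, 4.9 and 5.04 in ETS1-High (log2 fold change 5.60; SE 0.11; adjusted p 2.4e-40). RFP had 7.66, 7.22 and 7.37 FPKM, so CDH2 was low in the ETS1-Low libraries alone. CDH20, on chromosome 18 like CDH2, showed the same order with 0.64 to 0.78 FPKM in RFP, 0.02 to 0.06 in ETS1-Low and 0.62 to 0.69 in ETS1-High. Its neighbour CDH7 was highest in ETS1-High, with 0.33 to 0.45, 0.01 to 0.03 and 1.88 to 2.51 FPKM in the same groups. CDH11, a mesenchymal cadherin, rose from 45.3, 40.9 and 50.2 to 96.95, 96.8 and 94.5 FPKM (1.02), and CDH4 (2.74), CDH8 (2.68) and PCDH11X (3.29) rose as well.

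In the protocadherin clusters all 14 beta genes tested were called higher, 12 of them at 2-fold (median 2.26, or 2.07 with 2 genes at their bound; range 0.21 to 2.59). Of 21 gamma genes, 20 were called higher, 16 at 2-fold (median 1.78, range 0.21 to 1.86), and of 10 alpha genes 4 were higher and 0 lower (median 1.08, or 0.59 with 5 at their bound; range 0.03 to 1.15). The window of the clusters had a median of 0.01. Levels were low except for PCDHGC3. PCDHB2, the most abundant beta gene, had 3.88, 3.45 and 3.54 FPKM in RFP, 1.33, 1.53 and 1.37 in ETS1-Low and 4.18, 3.7 and 3.54 in ETS1-High (log2 fold change 1.43; adjusted p 3.0e-22). PCDHGB2 rose from 0.46, 0.49 and 0.53 to 3.33, 3.07 and 2.72 FPKM (2.71), PCDHGA6 from 0.25, 0.32 and 0.2 to 1.01, 0.82 and 0.91 and PCDHGC3 from 23.4, 22.6 and 24.03 to 37.4, 32 and 32.9. PCDHGC5 was the gamma gene that did not pass the test (adjusted p 0.97). Gamma and alpha genes share their last exons, and beta genes are near copies of each other, so reads may be split between members and the members are not independent. With a filter of at least 1 FPKM on mean level, 1 beta and 2 gamma genes were left as calls by limma.

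A stretch of promoter that most beta genes share is shown because every beta gene tested was called higher. The letters GTGGCGCT, searched on both strands, stand within 15 to 83 bases before the start site in 12 of 14 beta promoters (85.71%), in 0 of 20 gamma and 0 of 13 alpha promoters, and in 327 of all 34943 promoters (0.9358%). Promoters were found for 12 of the 14 beta genes tested, and 11 of these 12 hold the letters. PCDHB7 holds them and was not tested. This motif was chosen after the sequences were seen, and its relation to the fold changes was not tested. Of the gamma genes, whose promoters lack the motif, 20 of 21 were called higher. The tested beta gene whose promoter lacks the motif was called higher too. The runs below are examples from the 11 tested genes, RefSeq GRCh38.p14, plus strand, with the motif in capitals.
PCDHB2, chr5:141094541-141094578: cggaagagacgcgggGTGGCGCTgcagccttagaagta
PCDHB3, chr5:141100390-141100427: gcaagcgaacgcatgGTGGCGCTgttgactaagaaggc
PCDHB9, chr5:141187071-141187108: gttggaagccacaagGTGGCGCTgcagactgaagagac
PCDHB12, chr5:141208640-141208677: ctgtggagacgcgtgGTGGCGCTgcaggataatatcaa
PCDHB14, chr5:141223260-141223297: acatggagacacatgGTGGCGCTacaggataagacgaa
PCDHB15, chr5:141245311-141245348: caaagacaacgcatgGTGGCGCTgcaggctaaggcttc
Beside these runs, the log2 fold changes were 1.43 for PCDHB2, 1.52 for PCDHB3, 2.00 for PCDHB9, 2.66 for PCDHB12, 2.79 for PCDHB14 and 3.00 for PCDHB15.

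**Figure D4:**
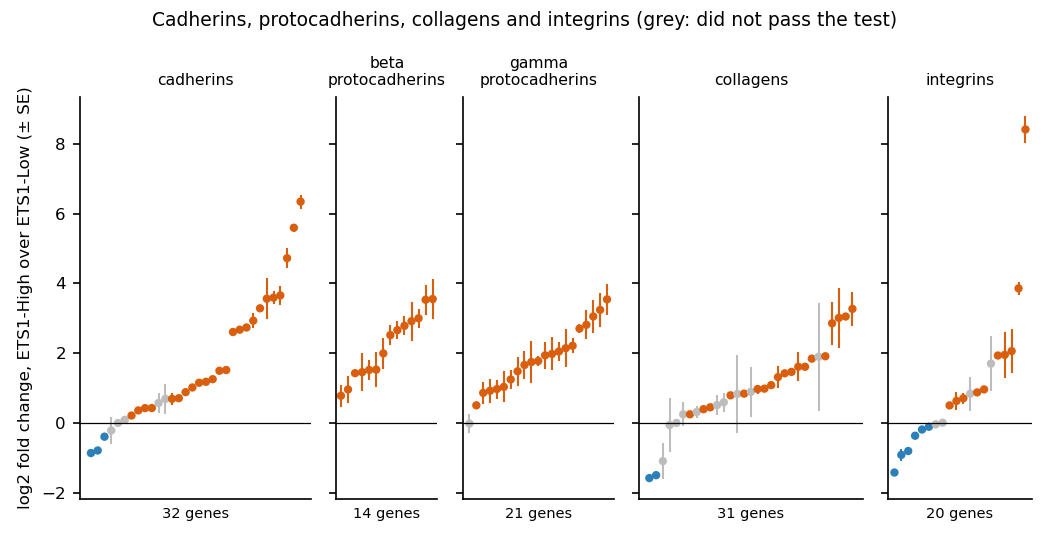
Log2 fold changes of ETS1-High against ETS1-Low for each tested cadherin, beta and gamma protocadherin, collagen and integrin gene, sorted within its family; points are genes, bars are standard errors, orange and blue mark genes called higher and lower and grey those not called. All 14 beta protocadherins and 20 of 21 gamma protocadherins are called higher, while integrins lie on both sides of 0.

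Genes that EWSR1::FLI1 is known to repress were mostly higher in ETS1-High. Of 33 repressed targets tested, 24 were called higher and 6 lower, 13 and 3 at 2-fold (median 0.84, or 0.68 with 4 genes at their bound; range 0.41 to 0.86). TNC and CDH11, given above, belong to this list. IGFBP3, a binding protein that restrains insulin-like growth factors, rose from 3.89, 4.22 and 3.55 to 19.4, 19.7 and 18.3 FPKM, above the 4.12 to 5.1 of RFP (log2 fold change 2.32; adjusted p 2.5e-33). SPRY4, an inhibitor of receptor kinase signalling, fell from 0.56, 0.7 and 0.66 to 0.07, 0.09 and 0.11 FPKM (-2.79), and DKK1, a Wnt antagonist on chromosome 10, had a log2 fold change of -0.98 (window median -0.27). The 43 activated targets were balanced, 17 higher and 18 lower with a median of -0.02 (range -0.04 to -0.01), shares not far above the background. NPY1R, a neuropeptide Y receptor, rose from 0.28, 0.26 and 0.24 to 1.7, 1.81 and 1.71 FPKM but was highest in RFP (6.32 to 6.73). PRKCA, a protein kinase C isoform, had a log2 fold change of 1.5. TERT, the catalytic subunit of telomerase, fell from 7.1, 5.8 and 7.41 to 1.63, 1.37 and 1.73 FPKM (-2.14), and ADRB3, the beta 3 adrenergic receptor, had a log2 fold change of -2.39 (window median -0.36). NR0B1, a nuclear receptor of the fusion programme, differed by -0.18, and CCND1 did not pass the test (adjusted p 0.76).

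Among TGF-beta genes, the latency protein LTBP1, the ligand TGFB2 and both signalling receptors rose, while TGFB1 and the coreceptor TGFBR3 fell. LTBP1, which tethers latent TGF-beta to the matrix, stood at 1.43, 1.35 and 1.59 FPKM in ETS1-Low and 15.2, 14.6 and 13.6 in ETS1-High (log2 fold change 3.34; SE 0.051; adjusted p 3.4e-45). RFP had 1.7 to 2.05 FPKM, so LTBP1 was high in ETS1-High alone. TGFB2 rose from 3.6, 4.28 and 3.97 to 16.9, 15.3 and 15.5 FPKM with RFP at 3.04 to 3.31 (1.92), while TGFB1 fell (-0.36). The receptors TGFBR1 on chromosome 9 (1.4; window median 0.52) and TGFBR2 (1.04) rose. TGFBR3, betaglycan, which presents ligand to them, went from 5.84, 5.14 and 5.97 to 3.12, 3.05 and 2.87 FPKM (-0.95). Of 15 receptors and SMAD genes, 8 were called higher, 2 lower and 5 not called (median 0.09). In the whole list 14 of 26 genes were called higher and 5 lower (median 0.18, or 0.12 with 1 gene at its bound; range 0.10 to 0.19).

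BMP genes moved in both directions at the ligand and antagonist level. Of 34 tested, 17 were called higher and 11 lower (median 0.23; the median ran from -0.04 to 0.27 over the alternative settings). BMP2 rose from 0.08, 0.08 and 0.04 to 1.19, 1.01 and 1.4 FPKM (4.09; SE 0.20), with RFP at 2.15 to 2.47, and BMP7 had a log2 fold change of -0.98. Among antagonists, CHRDL1 rose and GREM1 fell, as given above, and NOG, noggin, had a log2 fold change of -1.22. Of the response genes, MSX2 (1.68), ATOH8 (2.28) and ID3 (0.57) were higher, whereas ID1 had a log2 fold change of -0.04 (adjusted p 0.62).

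Wnt genes were led by SFRP2. Of 45 tested, 22 were called higher and 11 lower (median 0.24, or 0.11 with 6 genes at their bound; range 0.05 to 0.27). Without ETS1-High replicate 1 the median was 0.13. FRZB, a secreted antagonist related to SFRP2, had a log2 fold change of 1.4 (window median 0.32), and FZD4, a receptor, of 1.2. LGR5, a receptor for R-spondins, had a log2 fold change of -0.97 and LRP6, a coreceptor, of -0.41. Notch genes were even, 8 of 25 higher and 7 lower (median 0.07, range 0.04 to 0.12). JAG2, a ligand, fell from 12.5, 10.9 and 11.3 to 1.63, 1.05 and 1.79 FPKM (-2.95; adjusted p 2.0e-37), and its relative JAG1 had a log2 fold change of 0.49. NOTCH1, a receptor on chromosome 9, had a log2 fold change of 0.66 (window median 0.43), and HEYL, a target, of -1.09.

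In the axis of insulin-like growth factors, on which Ewing sarcoma cells are known to depend, the binding proteins IGFBP3, IGFBP4 and IGFBP5 rose and the receptors INSR and IGF1R fell. IGFBP3 and IGFBP5 are given above, and IGFBP4 had a log2 fold change of 0.97. IRS1, the docking protein of the receptors, had one of 0.82. INSR had a log2 fold change of -0.70 and IGF1R, on chromosome 15, of -0.16 (window median -0.35). Less its window median, IGF1R changed sign, to 0.19. The list held 11 higher and 6 lower of 22 (median 0.52, or 0.22 with 2 genes at their bound; range 0.12 to 0.63). Without ETS1-High replicate 1 the median was 0.23, as it was with only the 6 ETS1 libraries in the fit.

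Feedback and immediate early genes of the ERK pathway were mostly lower. Of 22 tested, 15 were called lower and 5 higher (median -0.41). DUSP6, the phosphatase of ERK, fell from 11.4, 13.8 and 12.8 to 8.01, 8.48 and 8.23 FPKM (-0.70), EGR1, an immediate early factor, from 20.7, 20.4 and 21.2 to 12.6, 10.8 and 10.98 (-0.89), and SPRY4 as given above. IER3, an immediate early gene linked to survival, rose instead (1.61). Of the receptor kinases, MERTK (-2.23), AXL (-0.91) and TYRO3 (-0.66; window median -0.30), which together form the TAM family, all fell. FGFR2 on chromosome 10 had a log2 fold change of -0.72 (window median -0.40). NTRK2, the BDNF receptor on chromosome 9, had one of 1.66 (window median 0.52).

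The ETS family itself was even, 8 of 21 higher and 8 lower (median 0.09, range 0.04 to 0.13). ELK3 had a larger log2 fold change than ETS1 itself and rose from 6.55, 6.75 and 7.02 to 14.7, 13.5 and 13.9 FPKM (1.06), to the 12.5 to 13.9 of RFP. EHF, an epithelial ETS factor named after its values were seen, was the other member at 2-fold higher, from 0.31, 0.11 and 0.17 to 0.97, 0.53 and 0.71 FPKM (2.41). The PEA3 group fell: ETV4 as given above, ETV5 (-1.29, with overlapping FPKM) and ETV1, from 11.8, 11.3 and 12.7 to 8.33, 8.67 and 8.74 FPKM (-0.55). ETS2, the closest relative of ETS1, fell from 4.28, 3.75 and 4.4 to 2.48, 2.55 and 2.77 FPKM (-0.75).

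Factors and targets of the coactivator YAP and its TEAD partners were together more often higher, 20 of 35 against 11 lower (median 0.34). Of the 21 targets alone, 12 were called higher (57.14%) and 8 lower (38.1%), both above the shares over all genes tested (median 0.38). ANKRD1, a classic target on chromosome 10, rose from 3.69, 3.78 and 3.47 to 39.9, 39.8 and 39.3 FPKM although its window had a median of -0.35 (log2 fold change 3.41; adjusted p 4.7e-46). RFP, at 8.86 to 9.46 FPKM, lay between. CYR61 had a log2 fold change of 1.37 and AMOT, an inhibitor of YAP on chromosome X, of 1.49 (window median 0.58). Among regulators and markers of the epithelial to mesenchymal transition, 13 of 22 were called higher and 6 lower. The list mixes mesenchymal and epithelial genes, so these counts give no direction of the transition. TWIST1 had a log2 fold change of 1.68, the claudin CLDN1 of 1.18 and the keratin KRT8 of -1.30.

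Interferon-stimulated genes were more often higher, with BST2 a marked exception. Of 75 tested, 47 were called higher and 13 lower, 14 and 1 at 2-fold (median 0.21). IRF1, a transcription factor of the response, rose from 4.57, 4.37 and 4.11 to 14.5, 16.4 and 14.8 FPKM with RFP at 3.22 to 3.53 (1.76; adjusted p 1.9e-27), and TRIM22, an antiviral ligase, had a log2 fold change of 0.84. BST2, the antiviral tether tetherin, stood at 1.75 to 2.11 FPKM in RFP, 90.3, 92.2 and 89.96 in ETS1-Low and 29.1, 29.9 and 30.03 in ETS1-High (-1.65). Members differed widely in size. IFI44L of this list belonged to the largest increases given above. ISG15 moved little, with a log2 fold change of 0.17 (window median -0.27), and MX1 had one of 0.10 that did not pass the test (adjusted p 0.64). In antigen presentation by MHC class I, 13 of 24 genes were higher and 5 lower. PSMB9, an immunoproteasome subunit, rose from 9.77, 11.5 and 9.94 to 24.4, 22.2 and 22.6 FPKM (1.11), while B2M, the light chain of class I molecules on chromosome 15, fell (-0.34; window median -0.30). Among chemokines, CCL2, which attracts monocytes, rose from 0.72, 0.71 and 1.11 to 11.1, 12.3 and 11.9 FPKM (3.76), with RFP at 0.66 to 1. Both receptors of CXCL12 rose, CXCR4 by a log2 fold change of 1.37 (window median 0.41) and ACKR3 by 1.5, ACKR3 from 33.9, 31.9 and 32.3 to 89.1, 94.3 and 85.8 FPKM.

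Neural gene groups changed without a common direction. Axon guidance genes were more often higher, 29 of 62 against 14 lower (median 0.21, range 0.13 to 0.27). SEMA3D (2.51), SEMA6A (2.45) and SEMA3A (-1.83) encode semaphorins, UNC5B (2.14; window median -0.29) a netrin receptor and NTNG1 (-1.38; window median -0.21) a netrin-like membrane protein. Potassium channels fell more often than they rose, 13 of 32 against 5 (median -0.22), as for KCNA2 (-1.84; window median -0.21). Calcium and sodium channels were more often higher than lower, 12 against 2 of 25 with 11 not called (median 0.48, or 0.24 with 3 at their bound), with CACNA1C, the L-type calcium channel, at 2.19 and the T-type channel CACNA1I at -1.77. CHRNA9, a nicotinic receptor subunit, had 41.7 to 48.6 FPKM in RFP, 5.69, 5.96 and 6.73 in ETS1-Low and 0.54, 0.72 and 0.71 in ETS1-High (-3.55; adjusted p 6.6e-32). Of 36 neural transcription factors 20 were higher and 11 lower, with SOX11 at 1.43, PAX3 at 0.88, HAND2 at 0.94 and SOX13 at -1.45.

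HOX genes, which set position along the body axis, differed by cluster. None of the HOXA genes was expressed enough to be tested. Of 9 HOXB genes 7 were called lower and 1 higher. Of 9 HOXC genes 5 were higher and 0 lower, and of 8 HOXD genes 5 were higher and 1 lower. The differences were small. HOXD11 rose from 44.8, 45.9 and 47.1 to 65.4, 67.4 and 63.9 FPKM (0.48; window median 0.21), and HOXB2 had a log2 fold change of -0.48. HOXB13, which lies apart from the rest of its cluster, was the HOXB gene that rose, from 74.5, 72.3 and 76.1 to 88.3, 93.6 and 87.5 FPKM (0.24). HOXD13, a posterior gene that is abundant in Ewing sarcoma, did not pass the test (0.07; adjusted p 0.076).

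Metabolic groups shifted by small amounts, most of them downward. Glycolytic genes were lower in 16 of 21 cases and higher in 3 (median -0.22), with HK1, hexokinase on chromosome 10, at -0.82 (window median -0.29) and PGAM1 on the same chromosome at -0.62 (window median -0.35). LDHA, lactate dehydrogenase A, was higher (0.26). Serine and one-carbon genes fell in 20 of 29 cases (median -0.19), with MTHFD2 at -0.63, TRIB3, a stress response gene, at -0.81 and ALDH1L1, which oxidises formyl folate, at -1.95. Antioxidant genes of the NRF2 and glutathione list fell in 20 of 33 cases (median -0.31). AKR1C3, an aldo-keto reductase on chromosome 10, went from 23.1, 22.2 and 22.2 to 4.86, 3.97 and 4.9 FPKM (-2.33; window median -0.22), and close relatives in that family make the assignment of its reads uncertain. Cholesterol synthesis was the metabolic list that rose, 20 of 26 higher and 4 lower (median 0.43). HMGCS1, an early enzyme of the pathway, had a log2 fold change of 0.99 and STARD4, a sterol carrier, of 1.47. Fatty acid genes were even, 8 higher and 8 lower of 21.

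Ribosomal protein genes were lower nearly throughout, by little. Of 77 tested, 69 were called lower and 6 higher (median -0.27). RPLP1, a stalk protein encoded on chromosome 15, had a log2 fold change of -0.76 (window median -0.35), RPL4 on the same chromosome of -0.55 and RPLP0 on chromosome 12 of -0.54. RPL7A on chromosome 9 rose (0.36; window median 0.43), as did RPL35 on that chromosome (0.26) and RPL10 (window median 0.49), RPL36A and RPL39 (window median 0.58) on chromosome X. Less the median of their windows, the log2 differences of these genes turned negative. Their many processed copies make ribosomal protein counts uncertain. Nuclear genes of oxidative phosphorylation were lower in 45 of 66 cases and higher in 7 (median -0.15), while of 13 genes of the mitochondrial genome 1 was higher and 1 lower. CYC1, cytochrome c1 on chromosome 8, had a log2 fold change of -0.67 (window median -0.42), SDHB of -0.57 (window median -0.27) and SDHA, another subunit of complex II, of 0.58.

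Cell cycle lists differed in direction and were small in size. DNA replication genes were lower in 32 of 52 cases (median -0.12), with the helicase subunit MCM4 on chromosome 8 at -0.56 (window median -0.31) and the licensing factor CDT1 at -0.52. Mitotic genes were higher in 27 and lower in 19 of 58 cases (median 0.05), with the kinase AURKA at 0.43, the kinesin KIF20A at 0.30 and the kinetochore protein SPC24 at -0.58. Of 30 p53 targets 9 were higher and 13 lower, and CDKN1A, the p21 inhibitor, had a log2 fold change of 0.68.

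**Figure D5:**
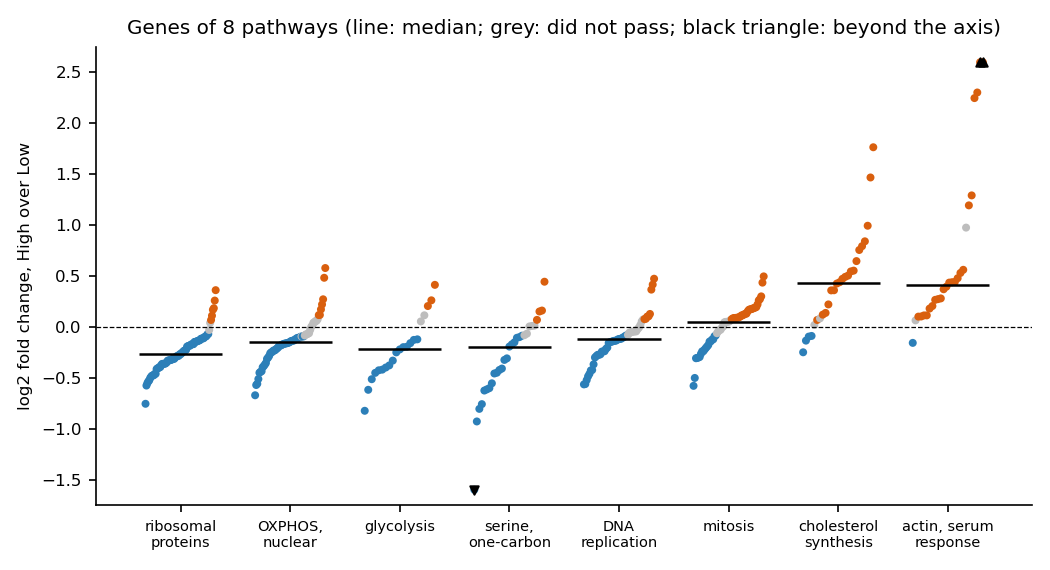
Log2 fold change of ETS1-High against ETS1-Low for each tested gene of 8 lists, 1 point per gene; orange and blue mark genes called higher and lower, grey those not called, lines are medians and triangles genes beyond the axis. Ribosomal proteins centre on -0.27 and glycolysis on -0.22, while cholesterol synthesis centres on 0.43 and actin genes on 0.42.

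Zinc finger genes of the ZNF series were called higher in 197 of 487 cases and lower in 74 (median 0.11), and GALNT enzymes, which start O-linked sugar chains on proteins, in 12 of 14 cases (median 0.65, range 0.40 to 0.70). GALNT2 had a log2 fold change of 0.74 and GALNT3 of -1.18. Of 33 chromatin repressors 12 were higher and 12 lower. PHF19, a polycomb partner on chromosome 9, had a log2 fold change of 1.14 (window median 0.43), and DNMT3B, a DNA methyltransferase, of -0.68. Antisense or same-strand neighbours overlap the exons of CDH2, COL5A1, TGFB2, IRF1, MYLK, NCAM1, GREM1, TNC and other genes named here, and how strand was used in counting is not given in the sources used here.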

How the data were processed

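Stranded mRNA libraries were measured in 9 samples of TC-32 cells, 3 per group, with groups read from the titles. The authors deposited RSEM expected counts and RSEM FPKM values per gene, per the file headers. Per the submitters' processing notes, cutadapt 4.4, STAR 2.7.3, featureCounts of Subread 2.0.3 and limma 3.38.3 were used with GRCh38 (hg38). The annotation release is not given in the sources used here. Gene positions came from GENCODE release 44 for 17076 of 17235 genes.

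Expected counts were rounded and tested with edgeR 4.0.16 in R 4.3.3 (TMM scaling, filterByExpr by group, robust glmQLFit, quasi-likelihood test), with all 9 libraries in 1 fit and the group as the only factor. The RFP libraries added to the estimate of the spread. Benjamini-Hochberg adjustment ran over 17235 genes, and calls needed an adjusted p below 0.05. FPKM gives levels and is not scaled by TMM. Of the counts per library, 9.00% to 10.3% were not whole, from reads shared between genes. Replicate pairs differed by more than sampling noise (chi-square per gene 2.66 to 5.19), so each library counted once. Intervals and floors cover counting error only, since PCR reads without molecular identifiers are not independent molecules. The fit was tested on simulated data.

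Members and lists were chosen with earlier results of these data known. Genes named are ETS1, TNS3, PDLIM1, FLI1 and EWSR1, then the 15 largest fold changes and 8 largest FPKM differences in each direction among called genes. The 15 were taken only from protein-coding genes with a minimum mean count in an ETS1 group and no overlap between the groups. From each list came the called genes with the 3 smallest p-values in its main direction and 2 in the other, above the same minimum count. Genes of the same axis stand beside them. Some genes that this rule names are not reported here. Lists were not tested as sets. Alternatives were limma 3.58.1 on log2 FPKM, DESeq2 1.42.0, other scaling and filters, a 2-fold test, a replicate block, subtraction of window medians and leaving out each library.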

Additional observations from a re-analysis of the deposited data

How the results depend on the processing

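The number of calls without each library in turn ran from 9504 to 10337. The count of genes at 2-fold fell from 1679 to 831 (513 higher, 318 lower) with at least 10 counts in every library, to 904 (627 and 277) when 2-fold itself was tested, and on FPKM with limma to 690 (406 and 284) with a pseudocount of 0.1, 459 (285 and 174) with a pseudocount of 1 and no filter, and 415 (252 and 163) with a filter of 1 FPKM. Without a filter, limma on log2(FPKM + 1) called 3352 genes lower. The cause of these shifts was not tested, beyond the fewer genes that a filter leaves. DESeq2 called 9333 genes. Of the genes at 2-fold, 62.12% were higher, and the alternatives gave 58.84% to 69.36%, the latter when 2-fold itself was tested. Replicate numbers do not pair the libraries: deviations of same-numbered libraries correlated at -0.165, 0.0474 and -0.193 over 10147 genes. Those of differently numbered libraries ran from -0.0884 to 0.240, the highest for ETS1-Low replicate 1 with ETS1-High replicate 3. A block on replicate number does not cover such pairs. With that block 10122 genes were called, 10055 of them shared with the unblocked fit and all in the same direction.

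Of 259 log2 fold changes followed for single genes, those of CDKN1B, E2F5 and GRIA3 missed the threshold under 1 to 4 alternatives, and that of TENM1 came to 0 less its window median. Less the median of their 20 Mb window, 12 genes changed sign: CENPI (-0.0882), E2F5 (0.076), ELF4 (-0.0009), GRIA3 (-0.2463), IGF1R (0.1872), PDIA3 (0.0381), PSAT1 (-0.389), RPL10 (-0.3203), RPL35 (-0.1738), RPL36A (-0.3262), RPL39 (-0.474) and RPL7A (-0.0716). EWSR1 passed the threshold with DESeq2 and in 3 FPKM settings, at log2 fold changes from 0.0648 to 0.1153. The list medians of BMP genes, cancer-testis antigens, matrix proteases, ion channels, neurotransmitter receptors, chromatin repressors, surface targets and replication-dependent histones took both signs over the settings. Of the other list medians given in the report beside those of Wnt and IGF genes, leaving out 1 library moved by more than 1.5 times those of LIM adaptors (0.03 to 0.05 without ETS1-High replicate 1 or ETS1-Low replicate 1 or 3), ETS genes (0.04 without ETS1-Low replicate 2), Notch genes (0.04 to 0.12 without any ETS1 library other than ETS1-Low replicate 1) and fusion-activated targets (-0.04 to -0.01 without ETS1-High replicate 2 or 3 or ETS1-Low replicate 3). Depth limits the protocadherins and other genes below 1 FPKM.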

Other observations

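Cancer-testis antigens, germline genes that tumours can re-express, were called higher in 8 of 16 cases and lower in 1, 7 and 1 of them at 2-fold. The list median was 0.89 and ran from -0.01 to 1.38 over the settings. MAGEA6 rose from 0.21, 0.09 and 0.21 FPKM in ETS1-Low to 19.1, 18.5 and 18.7 in ETS1-High, with 0.05 to 0.11 in RFP (log2 fold change 6.92; adjusted p 1.9e-41 by edgeR). Its near copy MAGEA3 had a log2 fold change of 5.96, and reads may be split between them. Both lie on chromosome X, where the window median was 0.49.

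Of 27 imprinted genes, which are expressed from 1 parental copy, 8 were called higher and 11 lower (median -0.13, range -0.18 to -0.06 over the settings). H19, a maternally expressed noncoding RNA, was at least 15.92-fold higher, with 0.02 to 0.06 FPKM in ETS1-Low and 0.6 to 0.81 in ETS1-High. MKRN3, a paternally expressed ubiquitin ligase gene on chromosome 15 (window median -0.30), was at least 25.68-fold lower, from 1.49, 1.13 and 1.63 to 0.03, 0.07 and 0 FPKM. MEG3, a maternally expressed noncoding RNA, had a log2 fold change of -2.19, and GNAS, which encodes the stimulatory G protein alpha subunit, of 0.55. DLX5, a homeobox gene of bone, had one of -1.62.

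KRT8 and KRT18, keratins of simple epithelia, were lower. KRT8 fell from 6.76, 6.36 and 5.94 to 2.79, 2.4 and 3.11 FPKM (-1.30) and KRT18 from 116, 110.3 and 116 to 80.3, 81.7 and 80.9 (-0.52). KRT17, a stress keratin, had a log2 fold change of -1.48. Of 8 keratins tested 4 were lower and 2, KRT5 and KRT80, were higher, both at 2-fold.

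Of 2009 long noncoding RNA genes tested, 398 were called lower (19.81%) and 255 higher (12.69%), with a median of -0.09. Both shares lay below the 29.3% and 29.9% over all genes tested. Of 13886 protein-coding genes 4759 were higher (34.27%) and 4401 lower (31.69%), with a median of 0.01. Replication-dependent histone genes were lower in 10 (26.32%) and higher in 3 (7.895%) of 38 cases, with 25 not called. Both histone shares were below those over all genes as well. Their messages lack poly(A) tails, which the mRNA selection uses, and their copies are similar, so these counts are uncertain. Their median was -0.27 and took both signs over the settings, from -0.38 to 0.0014.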
